A study of Oryza sativa Indica Group with 6 samples.

Results

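The genes described here make the labdane diterpenoid phytoalexins of rice, and they were compared between seedlings of the semi-dwarf mutant *sd37* and of its wild type 3037. The members were chosen by name from the pathway. They are the diphosphate cyclases *CPS2* and *CPS4*, the diterpene synthases *KSL4*, *KSL7*, *KSL8* and *KSL10*, and the cytochrome P450 genes *CYP99A3*, *CYP701A8*, *CYP76M7* and *CYP71Z7*. Of these 10 genes, 9 had a probe set with their symbol or synonym, out of 17905 genes with a probe set of their own and 57258 probe sets in all. No locus was named *KSL8*, so *KSL8*, known as the synthase that opens the branch to oryzalexin S, was not measured here. Where a gene had more than 1 probe set, the set with the highest mean signal over the 6 arrays was selected by that mean. The pathway itself was proposed with differences of these arrays in view, so the direction of its members is a description of these 6 arrays and not independent evidence.

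The *sd37* plants carried a spontaneous point mutation in *CYP96B4*, a cytochrome P450 gene outside this pathway, in the *indica* cultivar 3037, and the wild type was 3037 with no such mutation. Both were grown as seedlings for 2 weeks on MS pots in a phytotron with light periods of 16 h at 26 °C and dark periods of 8 h at 18 °C. Total RNA was read on Affymetrix Rice Genome Arrays, 1 array for each of 3 biological replicates of a genotype, with no elicitor or pathogen named in the labels. The mutant is a single allele, *CYP96B4* was not analysed here, and the tissue is not settled, since the labels name seedlings while a footnote to the study's gene lists speaks of apices. Whichever was taken holds several cell types, so that fewer cells of a type and less RNA per cell cannot be told apart in any value below.

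Labdane diterpenoids are antimicrobial compounds that rice builds up after infection, and that its roots also release. All start from geranylgeranyl diphosphate, the plastid precursor that gibberellin synthesis uses as well. A copalyl diphosphate synthase folds it into the *ent* or the *syn* form, a kaurene synthase-like enzyme closes the hydrocarbon skeleton, and P450 enzymes and dehydrogenases oxidize that skeleton. The *ent* branch gives phytocassanes and most oryzalexins, and the *syn* branch gives momilactones and oryzalexin S. Many of the genes lie next to each other in clusters on chromosomes 2 and 4, with a group of related P450 genes on chromosome 6.

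The array values are linear signals of probe sets, and the median of an array was 34.1 to 56.2 in *sd37* and 32.3 to 51 in the wild type. Replicate 1 had the highest median in both genotypes and stood apart from replicates 2 and 3, so differences within replicate numbers and without replicate 1 are given beside the main values of the members. Log2 signals were compared with limma, with Benjamini-Hochberg adjustment of its p-values over all 57258 probe sets. A call needed an adjusted p under 0.05 together with a difference of 1.5-fold or more. With all 6 arrays no probe set was called (0%). A looser threshold, the unadjusted p under 0.05 at that same 1.5-fold, was passed by 1249 probe sets, and counts at this unadjusted threshold are given as well but are not calls.

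Across all 6 arrays, 7 of the 9 measured genes had a higher mean log2 signal in *sd37* and 2 a lower one. The median log2 fold change of the 9 was 1.61, against 0.02 over all probe sets. Single arrays moved this median, to 0.49 without *sd37* replicate 1, 0.56 without wild-type replicate 3 and 2.54 without wild-type replicate 1. Positive differences were largest for *CPS2*, *KSL10* and *CYP701A8*, and differences lay within 0.60 on the log2 scale for *KSL7* and *CYP71Z7*. Past the unadjusted threshold were 3 genes with higher signal in *sd37*, *CPS2*, *CYP99A3* and *CYP701A8*, beside 1.2% of all probe sets on the higher side and 0.98% on the lower side, where no member stood. Without wild-type replicate 2, 1 member was past it, beside 934 of all probe sets, and without wild-type replicate 3, 1 beside 917. Under the analysis of variance that the methods name, 0 members were past it, beside 1401 of all probe sets. With the replicate number as a block, 5 members were past it, *CPS4* and *KSL10* in addition, beside 2.28% of all probe sets. No member was called in either fit, and the block called 0.0105% of all probe sets.

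*CPS2* makes *ent*-copalyl diphosphate for phytoalexins, the entry to phytocassanes and oryzalexins. Its signal was 1637, 2618 and 1526 in *sd37* replicates 1, 2 and 3, against 1325, 161.0 and 128.4 in the wild-type replicates. All 3 *sd37* arrays lay above all 3 wild-type arrays, but wild-type replicate 1 came close to the mutant, while wild-type replicates 2 and 3 were far below it. *CPS2* averaged 1870 in *sd37* and 301 in the wild type (back-transformed log2 means, SD of log2 signals 0.42 and 1.86, n = 3 each). The log2 fold change was 2.63 (limma's standard error, SE, 0.81, adjusted p = 1), or 6.20-fold. Without replicate 1 it was 3.80 (SE 0.28, n = 2 each), or 13.9-fold, and *CPS2* was then called with an adjusted p of 0.038. With values under 16 set to 16 in the same 4 arrays, a setting chosen after seeing the data, the fold was the same but the call was lost (adjusted p = 0.294 by limma). In the fit without replicate 1 as deposited, 0.0297% of all probe sets were called, and no other member was among them.

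*CPS4* makes *syn*-copalyl diphosphate, the entry to momilactones. It had signals of 874.3, 41.0 and 173.7 in *sd37*, against 301.4, 51.4 and 14.0 in the wild type. Replicate 1 was the highest array of both genotypes, the mutant was higher in replicates 1 and 3 and slightly lower in replicate 2, and the groups overlapped. The log2 fold change of 1.61 (SE 1.33, adjusted p = 1) was smaller than the spread within either genotype (SD 2.21 in *sd37* and 2.22 in the wild type). Leaving out 1 array at a time gave 0.49 to 2.78, the lowest without *sd37* replicate 1, and replicates 2 and 3 alone gave 1.65 (SE 0.94).

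*KSL4* closes the *syn*-pimaradiene skeleton of momilactones. It had 325.1, 23 and 28.7 in *sd37*, against 185.5, 9.4 and 14.3 in the wild type. Replicate 1 was again highest in both genotypes, and within each replicate number the mutant was the higher one, by 0.81, 1.29 and 1.01 on the log2 scale. The signals of replicates 2 and 3 were under the median of their arrays. The groups overlapped, and the log2 fold change of 1.04 (SE 1.40, adjusted p = 1) turned to -0.19 without *sd37* replicate 1 but was 1.15 (SE 0.91) without replicate 1 of both genotypes.

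*KSL7* makes *ent*-cassadiene, the skeleton of phytocassanes. Its signals were 843.9, 581.6 and 1058 in *sd37*, against 818.8, 998.8 and 1091 in the wild type. The arrays overlapped and were close to each other, replicate 1 included. The log2 fold change was -0.26 with a 95% interval of -0.92 to 0.40 (adjusted p = 1), so in this fit a 2-fold difference either way lay outside the interval. In replicates 2 and 3 alone the log2 fold change was -0.41 (SE 0.27), and the interval of -1.08 to 0.25 took in a 2-fold lower signal. A second probe set of *KSL7*, less bright, averaged 154 in *sd37* and 137 in the wild type, with a log2 fold change of 0.16 (SE 0.56), so the probe sets did not share a sign.

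*KSL10* makes *ent*-sandaracopimaradiene, the skeleton of oryzalexins A to F. It had 74.0, 71.9 and 52.2 in *sd37*, against 51.4, 3.6 and 14.6 in the wild type. Every *sd37* array lay above every wild-type array, though the lowest mutant array and the highest wild-type array nearly met. Over all arrays the log2 fold change was 2.23 (SE 1.01, adjusted p = 1), and without replicate 1 it was 3.08 (adjusted p = 0.559). *KSL10* was a dim probe set, and its 20.0-fold difference in replicate 2 rested on the wild-type signal of 3.6. With values under 16 set to 16 the log2 fold change over all arrays was 1.47, and with 16 added to every signal it was 1.25. *CPS2* and *KSL10* were thus the 2 members whose groups did not overlap with *sd37* above, beside 3.2% of all probe sets, and none did so with *sd37* below, beside 2.87%.

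*CYP99A3* oxidizes *syn*-pimaradiene on the way to momilactones. Its signals were 736.6, 206.0 and 386.7 in *sd37*, against 323.9, 71.0 and 62.7 in the wild type. The mutant was higher in each replicate number, and replicate 1 was the highest of each genotype. Its log2 fold change was 1.78 (SE 0.72, adjusted p = 1), or 3.44-fold. With the replicate block the standard error was 0.31 and the adjusted p 0.26, the smallest of the members in that fit, and without replicate 1 the log2 fold change was 2.08 (SE 0.36). The groups overlapped because wild-type replicate 1 lay above *sd37* replicate 2.

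*CYP701A8*, a relative of the gibberellin enzyme *ent*-kaurene oxidase, hydroxylates the *ent* skeletons of phytocassanes and oryzalexins. It had 1411, 1136 and 673.4 in *sd37*, against 1057, 143.8 and 93.2 in the wild type. This was the order seen for *CPS2*, with all mutant arrays and wild-type replicate 1 high and wild-type replicates 2 and 3 low, and the groups overlapped through wild-type replicate 1. Its log2 fold change was 2.08 (SE 0.83, adjusted p = 1), and without replicate 1 it was 2.92, or 7.55-fold (adjusted p = 0.099).

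*CYP71Z7* hydroxylates phytocassane precursors. Its signals were 3096, 355.3 and 374.5 in *sd37*, against 881.2, 407.5 and 331.1 in the wild type. Replicate 1 was highest in both genotypes, and only there did the mutant stand well above the wild type, by 3.51-fold, with overlap in the other arrays. Over all arrays the log2 fold change was 0.60 (SE 0.82, adjusted p = 1), and in replicates 2 and 3 alone it was -0.01 with a 95% interval of -0.44 to 0.42.

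The probe set annotated to *CYP76M7*, a hydroxylase of *ent*-cassadiene, was near the background, with 8.9, 1.3 and 1.6 in *sd37*, against 13.8, 18.7 and 5.9 in the wild type. The groups overlapped, since *sd37* replicate 1 lay above wild-type replicate 3, and the mutant was lower within each replicate number. The log2 fold change was -2.12 (SE 1.05, adjusted p = 1), and -2.86 without replicate 1. Its size depended on how low signals were treated, and with values under 16 set to 16 it was -0.07, with 16 added to every signal -0.53. Its mean log2 signal was at percentile 15.5 of all probe sets. The reference annotation places this locus on chromosome 6 and not in the chromosome 2 cluster of the other phytocassane genes, so which gene the probe set reports is uncertain. A gene-model synonym of this locus is numbered next to that of *CYP76M8* in the chromosome 2 cluster, where LOC4329723, a locus with no other name, follows *CYP76M8* and is a candidate for *CYP76M7*. LOC4329723, looked at after its values were seen, had 1061, 32.9 and 67.6 in *sd37*, against 522, 30.3 and 17.6 in the wild type. It was thus higher in the mutant within each replicate number, with a log2 fold change of 1.03 (SE 1.57, adjusted p = 1), the opposite sign to that of the annotated probe set, and was not counted among the members. Without the annotated probe set the median log2 fold change of the other 8 members was 1.70.

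**Figure D1:**
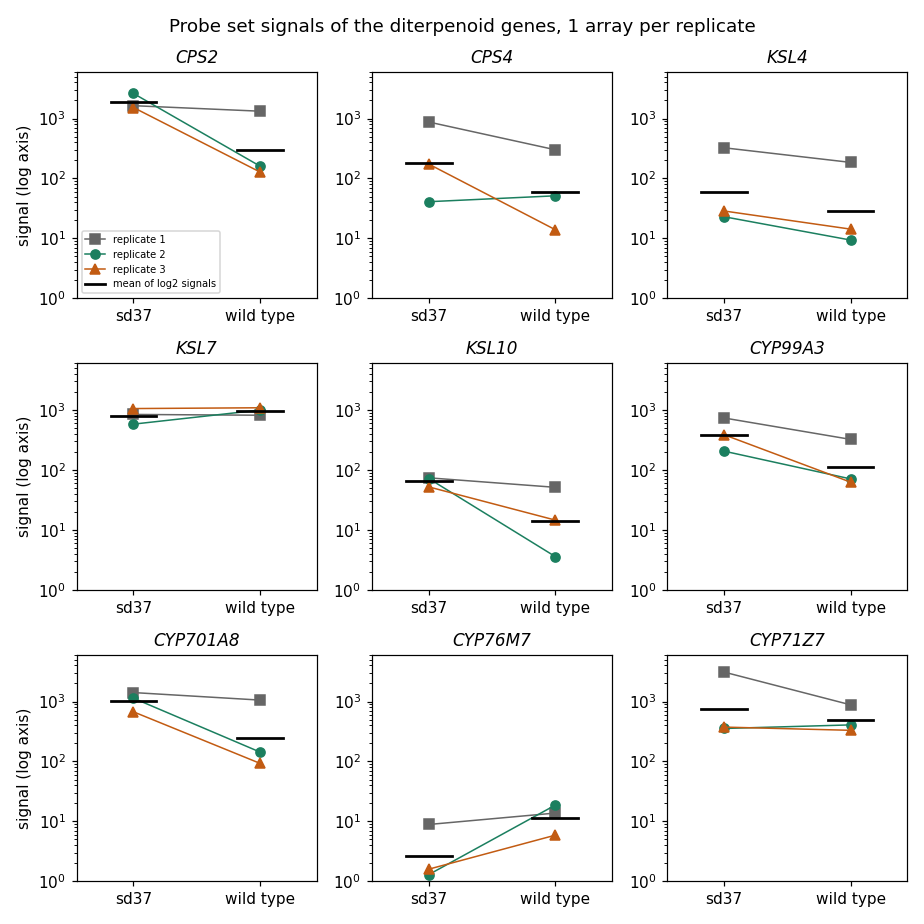
Signal of each measured gene on a logarithmic axis, *sd37* left and wild type right, with 1 point per array, lines joining arrays of the same replicate number and black bars for the back-transformed mean of the log2 signals (n = 3 each). For *CPS2*, *KSL10* and *CYP701A8* the wild-type arrays of replicates 2 and 3 lie far below the other 4 arrays, for *CPS4*, *KSL4* and *CYP71Z7* replicate 1 lies highest, and *KSL7* is level.

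Whether the genes moved together was described within each replicate number. The pairs of replicates 2 and 3 follow the labels alone, since the array values did not tell these pairs apart. In replicate 1, 8 of the 9 genes were higher in *sd37* (30210 of all probe sets were), with a median log2 difference of 0.53. In replicate 2, 5 of 9 were higher (27837 of all), with a median of 1.29, and in replicate 3 7 of 9 were higher (29452 of all), with a median of 1.84. The medians over all probe sets in the 3 replicates lay between -0.004 and 0.04.

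Higher in *sd37* in each of the 3 replicates were 5 of 9 members, *CPS2*, *KSL4*, *KSL10*, *CYP99A3* and *CYP701A8*, beside 14.1% of all probe sets. The same 5 were at least 2-fold higher in both replicates 2 and 3, where 4.65% of all probe sets were. Of the brighter probe sets, those with a signal of 100 or more in at least 3 arrays, 0.927% were. *CPS2*, *CYP99A3* and *CYP701A8* belong to these brighter ones, but *KSL4* and *KSL10* do not. In replicate 3 *KSL4* had 28.7 in *sd37* against 14.3 in the wild type. In replicate 1, *CPS4*, *CYP99A3* and *CYP71Z7* were at least 2-fold higher, beside 18.8% of all probe sets and 2.63% of the brighter ones. Thus *CYP99A3* was the only member at least 2-fold higher in the mutant in every replicate, by 1.19, 1.54 and 2.62 on the log2 scale. In the fit on replicates 2 and 3 alone, 4 members were past the unadjusted threshold on the higher side, *CPS2*, *KSL10*, *CYP99A3* and *CYP701A8*, beside 2.7% of all probe sets. *CYP76M7* was past it on the lower side, beside 2.77%, with a log2 fold change that shrank to -0.11 when values under 16 were set to 16.

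**Figure D2:**
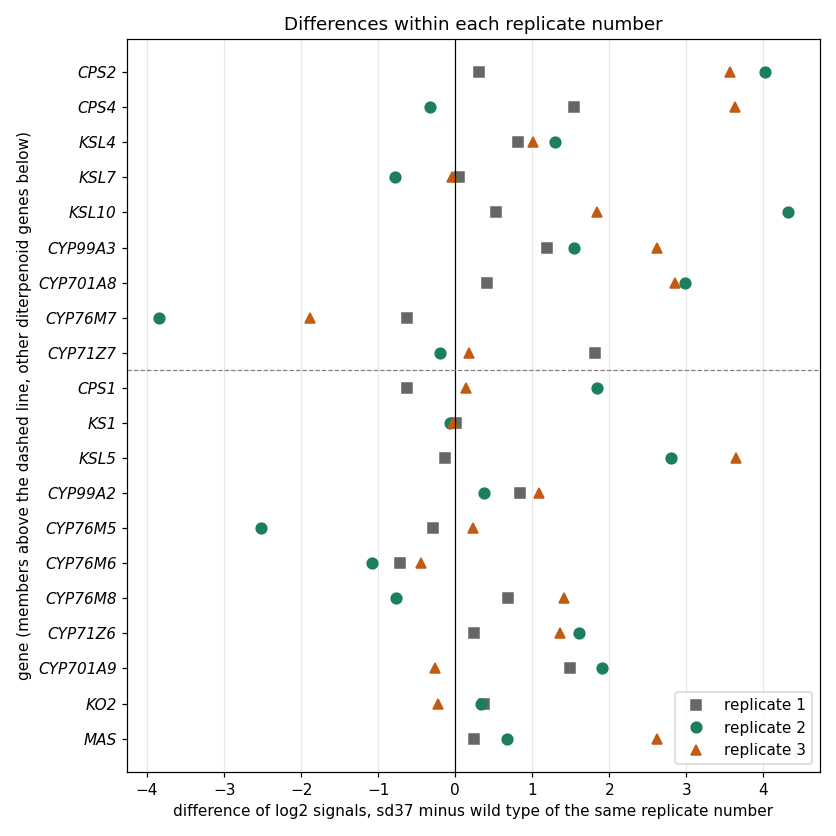
Difference of log2 signals, *sd37* minus wild type, for each gene and replicate number, with members above the dashed line and other diterpenoid genes below it, 1 array of each genotype behind each symbol. Squares for replicate 1 lie between -0.72 and 1.81, while *CPS2*, *CYP701A8* and *KSL5* lie between 2.80 and 4.02 in replicates 2 and 3.

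The genotype difference of some members was unlike in replicate 1 and in the other replicates. The difference in replicate 1 minus that in replicates 2 and 3, fitted as an interaction, was -3.49 for *CPS2* (SE 0.48) and -2.50 for *CYP701A8* (SE 0.55) on the log2 scale. For *CYP71Z7* it was 1.82 (SE 0.27). These were past the unadjusted threshold, 2 members on the lower side beside 3.6% of all probe sets and 1 on the higher side beside 4.1%. None of the 3 passed the adjusted threshold (adjusted p = 0.573 for each by limma), and 0% of all probe sets did. Hence a difference between replicates in the response of the genes was not established.

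**Figure D3:**
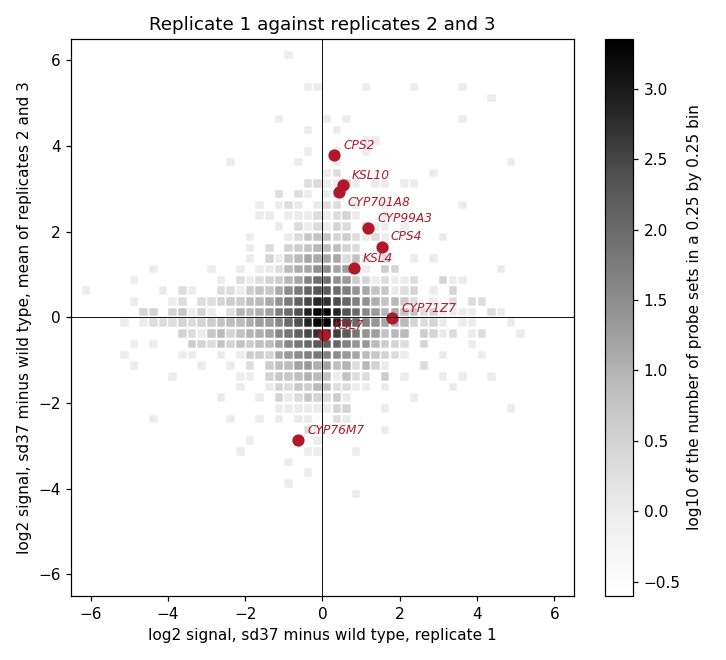
Difference of log2 signals, *sd37* minus wild type, in replicate 1 (horizontal) and as the mean of replicates 2 and 3 (vertical), with the measured members as named points. Grey squares count, on a log10 scale, the 21029 probe sets with a signal of 100 or more in at least 3 arrays, and members are drawn whether or not they are among them. *CPS2*, *KSL10* and *CYP701A8* lie high and near the vertical line at 0, and *CYP71Z7* lies to the right at a height near 0.

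Replicate 1 itself differed from replicates 2 and 3 in many genes. In a fit with genotype as a further term, which averages the replicate difference over the genotypes, 5 members were higher in replicate 1 at an adjusted p under 0.05, beside 9.38% of all probe sets. These were *KSL4* by 3.83 on the log2 scale (adjusted p = 0.00125), *CPS4* by 3.43 (adjusted p = 0.00547), *CYP71Z7* by 2.17 (adjusted p = 0.00202), *CYP701A8* by 1.94 (adjusted p = 0.0218) and *CYP99A3* by 1.83 (adjusted p = 0.00343). *KSL7* differed by -0.12 with a 95% interval of -0.65 to 0.40. The summed signal of the 9 members was 9006, 5034 and 4275 in *sd37*, against 4958, 1865 and 1755 in the wild type. It was highest in replicate 1 of each genotype, and *sd37* replicate 2 was close to wild-type replicate 1.

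Along the chromosomes, the reference annotation lists 10 protein-coding loci in the chromosome 2 cluster, 9 of them measured, 6 in the chromosome 4 cluster, 5 of them measured, and 4 in the chromosome 6 group, 3 of them measured. The chromosome 4 loci form the momilactone cluster, *CPS4*, *CYP99A3*, *MAS*, *KSL4* and *CYP99A2*. In replicates 1, 2 and 3 of this cluster 5, 4 and 5 of the 5 loci were higher in *sd37*, with median log2 differences of 0.84, 0.67 and 2.61. On chromosome 2, with *KSL7*, *CYP71Z6*, *CYP71Z7*, *CPS2* and *KSL5* in this order, 6, 4 and 7 of the 9 loci were higher, with medians of 0.24, -0.20 and 1.36. The neighbours *CPS2* and *KSL5* held the largest differences there in replicates 2 and 3, while *CYP71Z7* beside *CPS2* and the *CYP76M* genes at the ends did not share them. In the chromosome 6 group, *CYP701A9*, *CYP701A8* and *KO2*, 3, 3 and 1 of the 3 loci were higher, with medians of 0.42, 1.91 and -0.23.

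**Figure D4:**
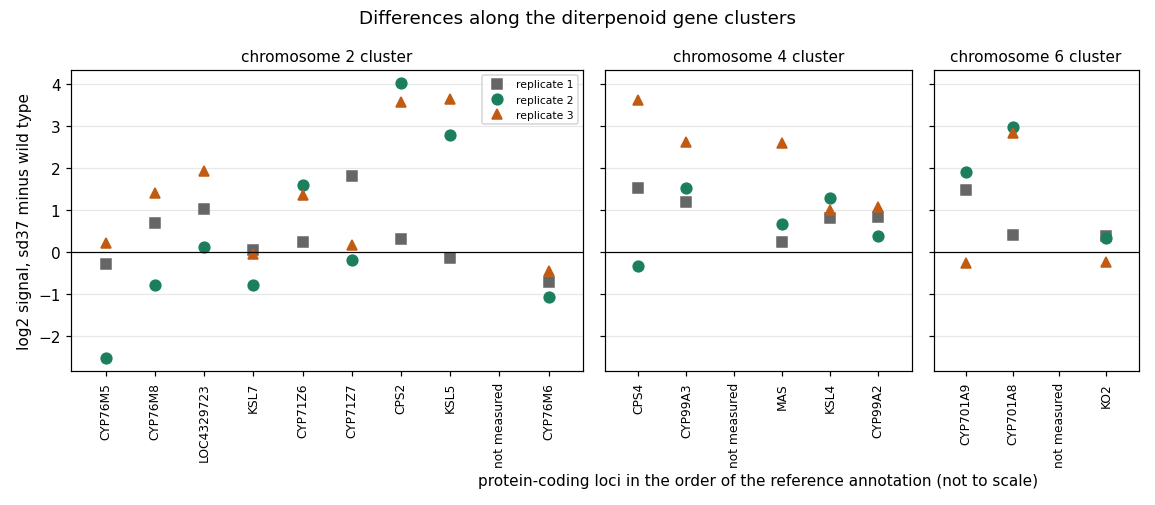
Difference of log2 signals, *sd37* minus wild type, at loci in the order of the reference annotation (not to scale) on chromosomes 2, 4 and 6, with a symbol for each replicate number. All measured chromosome 4 loci lie above 0 but for *CPS4* in replicate 2, and on chromosome 2 *CPS2* and *KSL5* stand out in replicates 2 and 3.

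Other diterpenoid genes, 11 of 33 names in a list of the pathway, were higher in *sd37* for 8 genes and lower for 3, at a median log2 fold change of 0.46. This list shares *CPS1*, *KS1* and *KO2* with the gibberellin list below, and without them 6 of 8 genes were higher and the median was 0.90. In the fit without a block only *KSL5* was past the unadjusted threshold, beside 1.2% of all probe sets on the higher side. *KSL5*, a diterpene synthase that uses the *ent* intermediate, had 226.2, 451.2 and 301.1 in *sd37*, against 247.5, 65.0 and 24.1 in the wild type. As for *CPS2*, wild-type replicates 2 and 3 were the low arrays. It was 4.30-fold higher in *sd37* over all arrays (SE 0.79 on the log2 scale) and had a log2 fold change of 3.22 without replicate 1. With the replicate block *CYP71Z6* and *CYP99A2* were past the unadjusted threshold too, beside 2.28% of all probe sets on the higher side. In replicates 2 and 3 alone *KSL5* and *CYP71Z6* were past it, beside 2.7%. *CYP71Z6*, which hydroxylates *ent*-isokaurene, had 2015, 2101 and 1165 in *sd37*, against 1707, 687.3 and 453.7 in the wild type, and a log2 fold change of 1.07 (SE 0.49). *CYP99A2*, the chromosome 4 neighbour with a role like that of *CYP99A3*, had 1965, 145.7 and 274.7 in *sd37*, against 1100, 112.1 and 129.6 in the wild type. In each pair of the same number the mutant was higher for both genes.

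Gibberellin synthesis shares the precursor and the first reactions. Of 6 measured genes of 9 named, none was past the unadjusted threshold in any of the 3 fits, and their median log2 fold change was 0.10. *KO2*, the *ent*-kaurene oxidase, had a log2 fold change of 0.16 (SE 0.39), and *KAO*, which oxidizes kaurenoic acid, had -0.22 (SE 0.49). *KS1*, the kaurene synthase, had 827.7, 1944 and 1732 in *sd37*, against 823.3, 2040 and 1775 in the wild type, and so differed by under 0.1 on the log2 scale within each replicate number. *CPS1*, the cyclase of gibberellin synthesis, had 244.8, 63.2 and 15.6 in *sd37*, against 377.2, 17.6 and 14.1 in the wild type, and overlapped. Its log2 fold change was 0.46 with a 95% interval of -2.87 to 3.78, so a difference of several-fold either way lay inside the interval. *KS1* and *CPS1* were named after their values were seen. The 5 measured genes of 20 named for the plastid supply of isoprenoid precursors had 0.07 as their median log2 fold change. The 2 of smallest p were *ISPE* (0.12, standard error 0.33) and *ISPG* (0.07, standard error 0.20), both enzymes of the methylerythritol phosphate pathway. The *DXS* and *GGPPS* names of this list matched no locus, so those genes were not measured.

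Regulators of phytoalexin synthesis, 6 measured of 21 named, had a median log2 fold change of 0.09 with none past the unadjusted threshold. *DPF*, *TGAP1*, *WRKY45* and *WRKY53*, among others, matched no locus name and were not measured, so the median speaks for the 6 alone. *BZIP79*, a transcription factor of phytoalexin genes, had 3.4, 5.4 and 4.7 in *sd37*, against 83.5, 12.5 and 2.7 in the wild type. *WRKY62*, a defence transcription factor, had 213.8, 865.4 and 91.4 in *sd37*, against 372.9, 138.4 and 111.9 in the wild type, so it was high in *sd37* replicate 2 alone. Of the 6 regulators 0 were higher in *sd37* in replicate 1, 5 in replicate 2 and 3 in replicate 3, so their directions did not hold across replicates.

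The list of other phytoalexins and defence proteins, 11 measured of 31 named, had a median log2 fold change of 0.07. *PBZ1*, a pathogenesis-related protein induced by probenazole, had 44038, 10763 and 11065 in *sd37*, against 26233, 6160 and 3703 in the wild type. It was higher in the mutant in each replicate number, with a log2 fold change of 1.04 (SE 0.79). *PBZ1* was past the unadjusted threshold with the replicate block and in replicates 2 and 3 alone, beside 2.28% and 2.7% of all probe sets on the higher side. *AOS1*, an enzyme of jasmonate synthesis, had a log2 fold change of -0.42 (SE 0.35). The other members of this list were past the threshold in none of these fits.

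**Figure D5:**
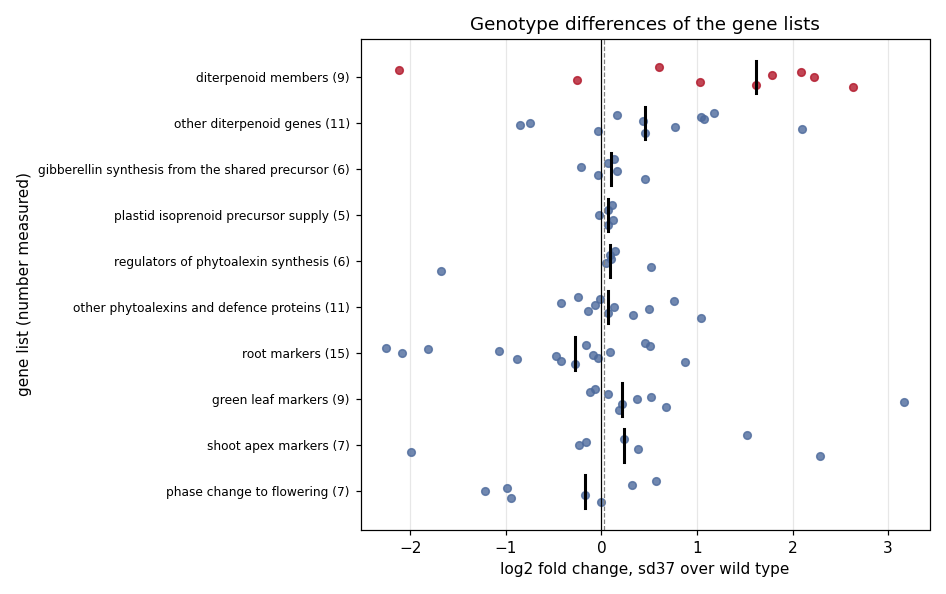
Log2 fold change over all 6 arrays, *sd37* over wild type, of each measured gene (points) and the median of each list (black bars), with the number measured in parentheses and a dashed line at the median of all probe sets. The diterpenoid members have a median of 1.61 and the other diterpenoid genes 0.46, while the medians of the remaining lists lie between -0.27 and 0.24.

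Markers of organs were read in the same way. Of 15 root markers measured (of 21), 11 were lower in *sd37*, at a median log2 fold change of -0.27, and their signals summed to 8384 to 16017 in *sd37* and 10151 to 17029 in the wild type. *NAS2*, an iron-chelator enzyme, was past the unadjusted threshold, beside 0.98% of all probe sets on the lower side. It had 18.1, 11.1 and 4.2 in *sd37*, against 27.8, 63.7 and 51.4 in the wild type. In replicates 2 and 3 alone 5 of the 15 were past this threshold on the lower side, *SHR1*, *SCR1*, *PIP2;5*, *NAS1* and *NAS2*, by -0.75 to -3.07 on the log2 scale, beside 2.77% of all probe sets. With the replicate block *PIP2;5* and *NAS2* were past it on the lower side, beside 1142 of all probe sets. None of the 5 had an adjusted p under 0.05, and *SHR1*, *NAS1* and *NAS2* were dim, at 23.6 or below in *sd37* replicates 2 and 3. The median of the root list was 0.07, -0.82 and -0.53 in replicates 1, 2 and 3, with 6, 12 and 10 of the 15 markers lower in *sd37*. *CPS2*, *KSL10* and *CYP701A8* also differed most in replicates 2 and 3, and a link between the 2 was not tested. Of 9 green leaf markers (of 26), 7 were higher, with a median of 0.21 and sums of 75968 to 230969 in *sd37* and 58317 to 207280 in the wild type. *PORA*, a protochlorophyllide oxidoreductase known from etiolated leaves, had 7160, 120.0 and 35.5 in *sd37*, against 7107, 2.3 and 2.6 in the wild type. *CAB2R*, a light-harvesting protein, had 82318, 24860 and 25811 in *sd37*, against 76051, 11577 and 14832 in the wild type. Both were past the unadjusted threshold with the replicate block, beside 2.28% of all probe sets on the higher side. They were highest in replicate 1 of each genotype and higher in *sd37* in replicates 2 and 3. In replicates 2 and 3 alone 8 of the 9 green leaf markers were higher in *sd37*. Past the threshold there were 3, *PORA*, *CAB2R* and *CHLH* (log2 fold change 0.72), beside 2.7%, and none was called. The wild-type signals of *PORA* in these replicates were near the background.

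The 7 shoot apex markers measured (of 12) had a median of 0.24, a range of -1.99 to 2.29, and sums of 3401 to 10261 in *sd37* and 3014 to 8615 in the wild type. On the higher side 1 was past the unadjusted threshold with the replicate block, beside 2.28% of all probe sets. In replicates 2 and 3 alone 1 was past it there, beside 2.7%. *OSH1*, the defining homeobox gene of the meristem, was at 29.5 or below on every array. *LAX1* and *OSH3* had log2 fold changes of 1.52 (SE 0.68) and -1.99 (SE 1.06). The 7 genes of the change to flowering (of 11) had a median of -0.17 and sums of 2490 to 21978 in *sd37* and 3289 to 21776 in the wild type. With the replicate block 2 were past the unadjusted threshold on the lower side, beside 1142 of all probe sets. In replicates 2 and 3 alone 1 was past it on the higher side and 1 on the lower, beside 2.7% and 2.77%. *MADS50* and *MADS34* had log2 fold changes of 0.32 (SE 0.27) and -1.22 (SE 1.37). *MADS14*, a flowering gene named after its values were seen, had 90.9, 4066 and 4020 in *sd37*, against 74.7, 4362 and 4620 in the wild type, so replicate 1 was far lower than the other replicates in both genotypes. The part of organ makeup and of the state of replicate 1 in the diterpenoid differences was not tested.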

How the data were processed

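Seedlings of *sd37* and 3037 were assayed on 6 arrays. The deposited intensity values are linear probe set signals, which the authors received from a service after its normalization. The sources used here do not name the algorithm. Of 57381 probe sets, 123 controls were left out. Signals under 1 (1.77%) were set to 1 and log2 was taken. Models were fitted on all 6 arrays in limma 3.58.1 under R 4.3.3, by lmFit and by eBayes with an intensity trend. The code was tested on simulated data. Standard errors are those of limma, n = 3 arrays a genotype, and intervals are at 95%. Precision is limited by the number of arrays. The median standard error was 0.287 in the brightest 25% of probe sets and 1.08 in the dimmest 25%.

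Genes were named from the platform table through the ASM3414082v1 reference annotation of *japonica* rice by symbol or synonym, without a leading Os. Of 22531 probe sets with a gene, 95 with several were left out. The array rests largely on *japonica* transcripts, and signals of close copies (*CYP99A2* with *CYP99A3*, *CYP71Z6* with *CYP71Z7*, the *CYP76M* and *CYP701A* genes) can be shared. Every member is named. Of each list (other diterpenoid, gibberellin, plastid precursor, regulator and defence genes and markers of root, green leaf, shoot apex and flowering), the genes past the unadjusted threshold or else the 2 of smallest p are named. Other names are marked in the text or passed in another fit given there. Members and lists were chosen with earlier results of these data known.

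Deviations from group means correlated across probe sets with 0.394, 0.134 and 0.16 for arrays of the same replicate number. Across numbers, replicates 2 and 3 gave 0.13 and 0.164, about as high as within them. Only replicate 1 was thus matched across genotypes by the values, and replicates 2 and 3 were paired by their labels alone. Fits with the replicate number as a block, with replicate 1 as a batch, on replicates 2 and 3 alone, with each array left out and with other scaling, floors and filters were alternatives, as was the analysis of variance that the methods name.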

Additional observations from a re-analysis of the deposited data

How the results depend on the processing

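Of 177 values of single members under the alternatives, 168 kept their direction and their side of the adjusted threshold. This count is no measure of robustness, since no member was called in the main fit. In addition, the block, the batch, the filter on low signals and the analysis of variance leave the fold changes as they are. The sign turned for *KSL4* without *sd37* replicate 1 (log2 fold change -0.19, and -0.19 to 2.37 with each array left out) and for *CYP71Z7* without *sd37* replicate 1 (-0.43, and -0.43 to 1.13 with each array left out) and in replicates 2 and 3 alone (-0.0100 as deposited and with a floor of 16, -0.0106 with quantile normalization, the combinations chosen after seeing the data). The interaction turned for *CPS4* with quantile normalization (0.00129) and for *KSL4* with a floor of 16 (0.13). *CPS2* gained its call in replicates 2 and 3 alone as deposited and with quantile normalization, but not with a floor of 16 (log2 fold change 3.80, adjusted p = 0.294 by limma). No member was called under the other alternatives, and 1 was called in these 2.

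Called among all probe sets were 0 as reported, 6 with the replicate block, 10 with replicate 1 as a batch, 17 in replicates 2 and 3 alone and 28 there with quantile normalization. Past the unadjusted threshold were 1249 as reported, 2446 with the replicate block, 2566 with the batch, 3131 in replicates 2 and 3 alone (3108 with quantile normalization, 2075 with a floor of 16), 810 with a floor of 16 and 193 of the 21029 probe sets with a signal of 100 or more in at least 3 arrays. Leaving out 1 array gave 917 to 2333, the highest without wild-type replicate 1. Medians made equal gave 1506, and the analysis of variance gave 1401.

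Of the members 3 were past the unadjusted threshold as reported and 5 with the replicate block, the batch, medians made equal, and replicates 2 and 3 alone under all 3 settings. These 5 were not the same genes throughout. With the block all 5 were higher in *sd37*, while in replicates 2 and 3 alone as deposited 4 were higher and *CYP76M7* was lower. With a floor of 16 in those replicates *CYP76M7* was at -0.11 and not past the threshold. With a floor of 16, 1 was past it, after the filter on low signals 1 (the cause was not tested, and the 3 members had the same folds there), under the analysis of variance 0 and with 1 array left out 1 to 4, 1 without wild-type replicate 2 or 3. The median of the members was 0.49 to 2.54 with 1 array left out, lowest without *sd37* replicate 1, highest without wild-type replicate 1, and 0.56 without wild-type replicate 3. With a floor of 16 the interaction passed in 4537 probe sets. Arrays set to the floor have no spread, and how many of the 4537 this covers was not counted. Dim probe sets (*KSL10*, *CYP76M7*) and the small number of arrays limit what these values can show.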

Other observations

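The genes outside the lists whose 6 signals ran most like the median of the members were sought among 14482 probe sets with a single gene. Each had a mean log2 signal at or above that of a signal of 100. Likeness was the root mean square distance between log2 signals, each minus its own mean, over 6 arrays. The nearest were LOC4350416 (0.38), LOC4339319 (0.41), LOC4336028 (0.41), LOC4345663 (0.43) and LOC4350176 (0.44), against a median of 1.25 over all candidates. None has a further name in the annotation. Of the members themselves *CYP99A3* (0.34) was nearest to the median of the members, and *CYP76M7* (1.91) and *KSL7* (1.28) were farthest. Between them were *CYP71Z7* (0.77), *CYP701A8* (0.82), *KSL4* (0.94), *CPS4* (0.97), *KSL10* (1.01) and *CPS2* (1.13). Apart from *CYP99A3*, each member was thus farther from this median than the 5 genes outside the lists, although the members make up the median. LOC4350416 had 2258, 652.9 and 817.6 in *sd37*, against 2008, 369.6 and 403.3 in the wild type. All 5 were highest in replicate 1 of each genotype and higher in *sd37* within each replicate number. The median of the members runs that way itself, so these shared traits follow from the selection and are no separate result.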
